A study of Trichoderma reesei with 24 samples.

Results

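The genes described here were higher in the Δ*nsd3* strain of *Trichoderma reesei* than in the WT on cellulose, at both times sampled, and had close levels in both strains on glucose and on glycerol. They numbered 85 of the 8755 genes in the expression table. A gene was taken when its mean log2(TPM + 1) was higher by 1 or more in Δ*nsd3* at both 8 h and 48 h on cellulose, when none of the 3 WT libraries reached any of the 3 Δ*nsd3* libraries at either time, and when the strains differed by less than 0.5 on glucose and on glycerol. TPM (transcripts per 1e6) is scaled for gene length and for the library, and a difference of 1 on the log2 scale is about a doubling. Near 0 TPM the added 1 shrinks differences, so levels that are close on this scale can differ more as a ratio. The genes were thus chosen by the strain differences measured in these libraries, so the differences between the strains, and the differences between cellulose and the other carbon sources, are described without a test. Tests were kept for 4 comparisons within a strain that the rule did not use. The rule did use the same libraries, so these tests are not independent of the choice of genes. The strains were the WT, named TU6, and the mutant strain Δ*nsd3*, with genotype *nsd3*::*pyr4*, and each was grown for 24 h on glucose, for 24 h on glycerol, or for 8 h or 48 h on cellulose after pregrowth on glycerol for 24 h, with 3 libraries for each of the 8 groups. TU6 is a uridine auxotroph derived from QM9414, and the deletion strain carries *pyr4* where *nsd3* was. The study added uridine to cultures when necessary, and which of these cultures received it was not stated. The name Δ*nsd3* stands for a single transformant, used in most experiments of the study. The loss of *nsd3*, the gain of *pyr4*, any difference in uridine supply, and other changes of that transformant therefore cannot be told apart. RNA came from bulk mycelia, in which less RNA per cell and fewer cells of a kind cannot be told apart either, and no marker of the tissue was tested.

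*T. reesei* is a filamentous fungus that feeds on plant cell walls. Glucose and glycerol enter the cell directly and feed glycolysis, whereas cellulose is insoluble and has to be cut by secreted cellulases before its sugars can be taken up, so a move to cellulose is also a move to a slow supply of carbon. Fungi control much of this change at the level of transcription, with activators that are needed for cellulase genes and repressors that keep them low while better carbon is present. Nsd3 is a zinc finger transcription factor related to NsdC of *Aspergillus*, which in *A. nidulans* is needed for sexual development.

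The level of *nsd3* (TRIREDRAFT_75672) fitted the strain labels. It had between 32.2 and 278 TPM in the 12 WT libraries and between 0 and 2.42 TPM in the 12 Δ*nsd3* libraries. In WT it had 206 ± 30.7 TPM on glucose and 255 ± 20.6 on glycerol, and 102 ± 56.5 at 8 h and 72.8 ± 48.3 at 48 h on cellulose (SD, n = 3). Estimated depth lay between 18.2 and 45.8 M reads, except for 238 M in the third Δ*nsd3* library on glycerol. Besides that library, a pair at 48 h stood apart. Replicate 2 of WT correlated across genes with the other 2 at r of 0.948 and 0.942, against 0.985 between those, and Δ*nsd3* replicate 2 was the library with 2.42 TPM of *nsd3*, about 96.9 estimated reads. Without these 3 libraries, 71 genes met the rule, of which 65 were among the 85.

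The 85 genes were mostly highly expressed when the carbon source was soluble. In WT on glucose their median was 225 TPM, against 16.3 over the 7933 genes tested, which reached 1 TPM in 3 or more libraries, and 11 of them had a mean of 1000 TPM or more. All 85 were among those 7933 genes. Together they held 8.20% ± 0.427 of all listed TPM in WT on glucose and 8.73% ± 0.517 in the mutant, and 7.02% ± 1.15 and 6.66% ± 0.176 on glycerol (SD, n = 3). On cellulose their share in WT was 1.72% ± 0.708 at 8 h and 1.10% ± 0.599 at 48 h. In the mutant it was 7.55% ± 1.36 at 8 h, between its shares on glucose and on glycerol, and 4.65% ± 1.11 at 48 h. The lowest Δ*nsd3* library on cellulose held 3.46% and the highest WT library 2.45%. The 5 genes with the highest level in WT on glucose made up 53.7% of the summed TPM there, so the share follows a few genes.

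**Figure D1:**
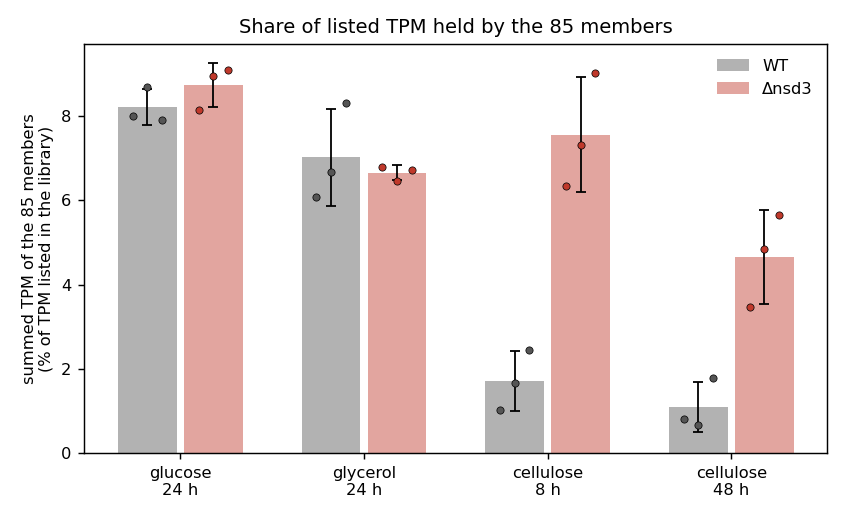
Summed TPM of the 85 genes as a percentage of the TPM listed in each library (vertical axis), by carbon source and time; bars are group means, error bars the SD over 3 libraries and points the libraries, grey for WT and red for Δ*nsd3*. The strains lie close together on glucose (8.20% and 8.73%) and glycerol (7.02% and 6.66%), and apart on cellulose, where WT is at 1.72% and 1.10% and Δ*nsd3* at 7.55% and 4.65%.

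Gene by gene, the difference between the strains had a median of 1.74 at 8 h (1.0040 to 5.18) and 1.65 at 48 h (1.0014 to 5.06) on the log2(TPM + 1) scale. It was 0.05 on glucose and 0.06 on glycerol. Over all 7933 genes the medians were −0.15 at 8 h, 0.03 at 48 h, −0.16 on glucose, and 0.29 on glycerol. Of all genes tested, 9.08% met the cellulose part of the rule at 8 h, 9.04% at 48 h, and 1.07% the whole rule. At both cellulose times together 378 genes met it, and 293 of these were left out because the strains also differed by 0.5 or more on glycerol alone (97), on glucose alone (60), or on both (136). The difference was larger at 8 h for 46 of the 85 genes and larger at 48 h for the other 39. It was 2 or more at both times for 18 genes. On glucose, where a small difference was part of the rule, all Δ*nsd3* libraries lay above WT for 24 genes (19.9% of all genes tested) and below for 11 (40.3%), and on glycerol for 14 (48.1%) and 11 (10.6%).

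**Figure D2:**
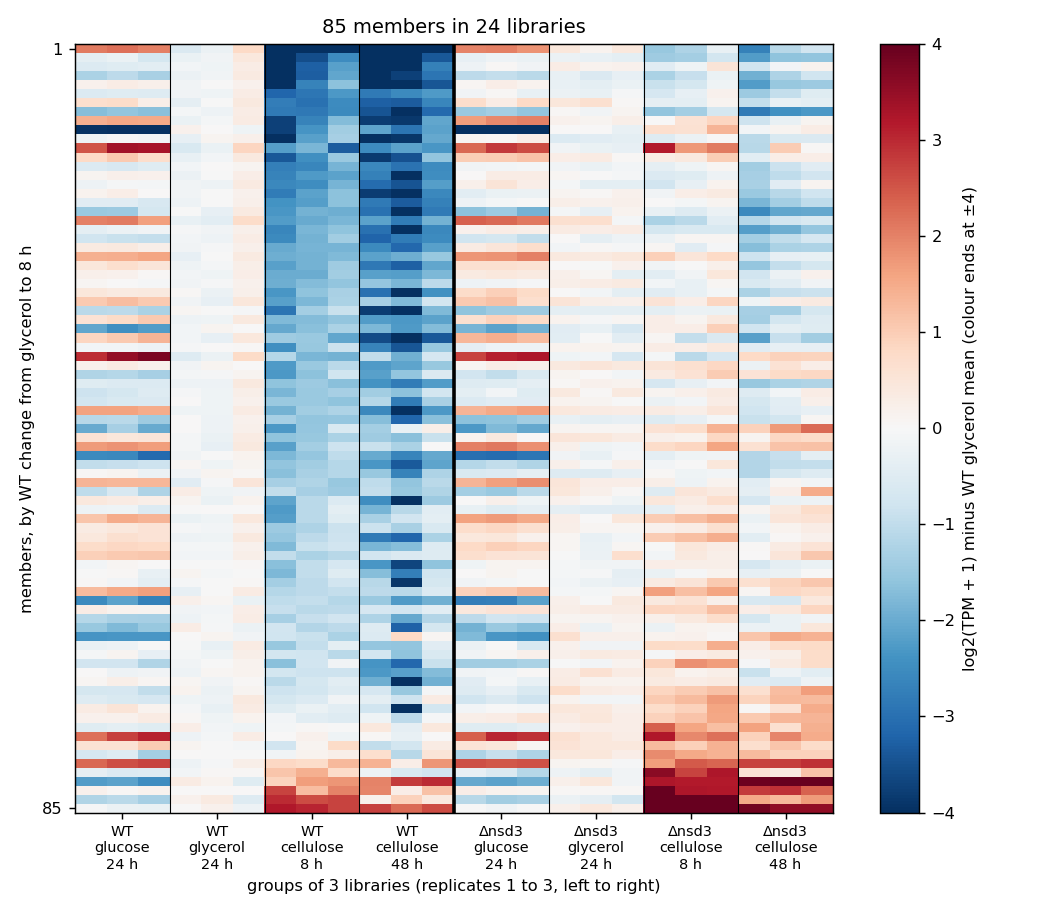
Levels of the 85 genes (rows, ordered by the WT difference between 8 h on cellulose and glycerol) in the 24 libraries (columns, 3 per group), as log2(TPM + 1) minus the WT mean on glycerol, blue for lower and red for higher. The 2 cellulose groups of WT are blue for most rows, whereas the 2 cellulose groups of Δ*nsd3* are mostly paler; the few rows at the bottom are higher on cellulose in both strains.

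The gene with the largest difference was TRIREDRAFT_81819. In WT it had 2875, 3145, and 2774 TPM on glucose and 461, 586, and 1174 on glycerol, but 2.83, 7.61, and 23.5 at 8 h on cellulose and 6.66, 1.38, and 18.6 at 48 h. The mutant had 2676, 2765, and 2397 TPM on glucose and 930.1, 746, and 905 on glycerol, then 236, 288, and 554 at 8 h and 103, 318, and 400.0 at 48 h. It was thus lower on cellulose than on glycerol in both strains, and WT at 8 h held 1.53% of its glycerol level against 41.8% in the mutant. The difference between the strains was 5.18 at 8 h and 5.06 at 48 h, and −0.17 on glucose and 0.33 on glycerol.

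For TRIREDRAFT_39942, the mutant was at 87.9% of its glycerol mean at 8 h, where the libraries overlapped, and at 75.6% at 48 h, where they did not. It had 3197, 2907, and 2912 TPM on glycerol, 1909.7, 2305, and 3706 at 8 h, and 1487, 2428, and 2903 at 48 h. The WT libraries had 2405, 2303, and 3217 TPM on glycerol, but 104, 272, and 576 at 8 h and 135, 115, and 396 at 48 h, so that every Δ*nsd3* library on cellulose was above every WT library there. The difference was 3.32 at 8 h and 3.57 at 48 h. TRIREDRAFT_21716 was likewise much lower on cellulose in WT, with 213, 405, and 802 TPM in WT at 8 h and 2739, 2946, and 4381 in the mutant, and with differences of 2.996 and 3.007. At 48 h it had 155, 200.3, and 743 TPM in WT, and 1681, 2679.7, and 2685 in the mutant.

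The most abundant of the 85 genes was TRIREDRAFT_121534. It had 15222, 16617, and 16451 TPM in WT on glucose and 18096, 21763, and 23012 in the mutant. On glycerol it had 4799, 5442, and 7215 TPM in WT and 6427, 6142, and 6784 in the mutant. At 8 h on cellulose the WT libraries had 428, 896, and 1709 TPM and the Δ*nsd3* libraries 5846, 8561, and 10349. At 48 h they had 408, 393, and 1372 TPM in WT and 3219, 4711, and 6239.8 in the mutant. The strain difference was 3.21 at 8 h and 2.91 at 48 h, against 0.37 on glucose and 0.17 on glycerol.

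Another 4 of the 12 genes with the largest differences had means of 903 TPM (TRIREDRAFT_59137) or more in WT on glucose. TRIREDRAFT_77481 had a mean of 9211 TPM in WT on glucose, and at 8 h it had 1189, 1869.8, and 2688 TPM in WT and 7518, 9933, and 10629 in the mutant (difference of 2.35, and 2.45 at 48 h). TRIREDRAFT_77699 had 191, 449, and 915 TPM in WT at 8 h and 1967, 2065, and 3193 in the mutant (2.45, and 3.09 at 48 h). TRIREDRAFT_59137 had 108, 212, and 489 TPM in WT at 8 h and 866, 1107, and 1727 in the mutant (2.40 and 2.31). For these 3 genes the mutant was at 56.7% to 105% of its glycerol level at 8 h, and WT at 9.62% to 23.0%. TRIREDRAFT_80920 was different, because the mutant went above its level on glycerol. It had 2641, 2066, and 2364 TPM there and 5074, 5869, and 6948 at 8 h, while WT had 2197, 2238, and 3278 TPM on glycerol and 855, 1212, and 1428 at 8 h.

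The remaining 4 of the 12 had means of 505 TPM (TRIREDRAFT_21876) or less in WT on glucose. TRIREDRAFT_45503 had 1.47, 1.15, and 1.94 TPM in WT at 8 h and 12.035, 11.963, and 17.3 in the mutant, where the scale of log2(TPM + 1) understates the ratio. TRIREDRAFT_76722 had 142, 269, and 409.6 TPM in WT at 8 h and 863, 1623, and 1468 in the mutant, which was 286% of the level of that strain on glycerol. TRIREDRAFT_111527 had little expression on glucose, with 8.30 ± 2.94 TPM in the mutant and 9.68 ± 1.44 in WT. On glycerol it had 211, 189.6, and 166 TPM in WT and 191, 189, and 154 in the mutant, and at 8 h it had 13.2, 35.8, and 70.8 TPM in WT and 299, 284, and 481 in the mutant.

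TRIREDRAFT_21876 had the second largest difference at 8 h, 4.79, and 2.31 at 48 h. In WT it had 37.5, 48.3, and 107 TPM on glycerol and 11.8, 15.8, and 4.84 at 8 h. The mutant had 52.4, 48.4, and 46.3 TPM on glycerol and 536, 196, and 248 at 8 h, so the strains moved in opposite directions from the same start. By 48 h the Δ*nsd3* libraries had 26.4, 119, and 59.6 TPM, which overlapped their glycerol level, and the WT libraries 9.27, 12.4, and 10.8.

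**Figure D3:**
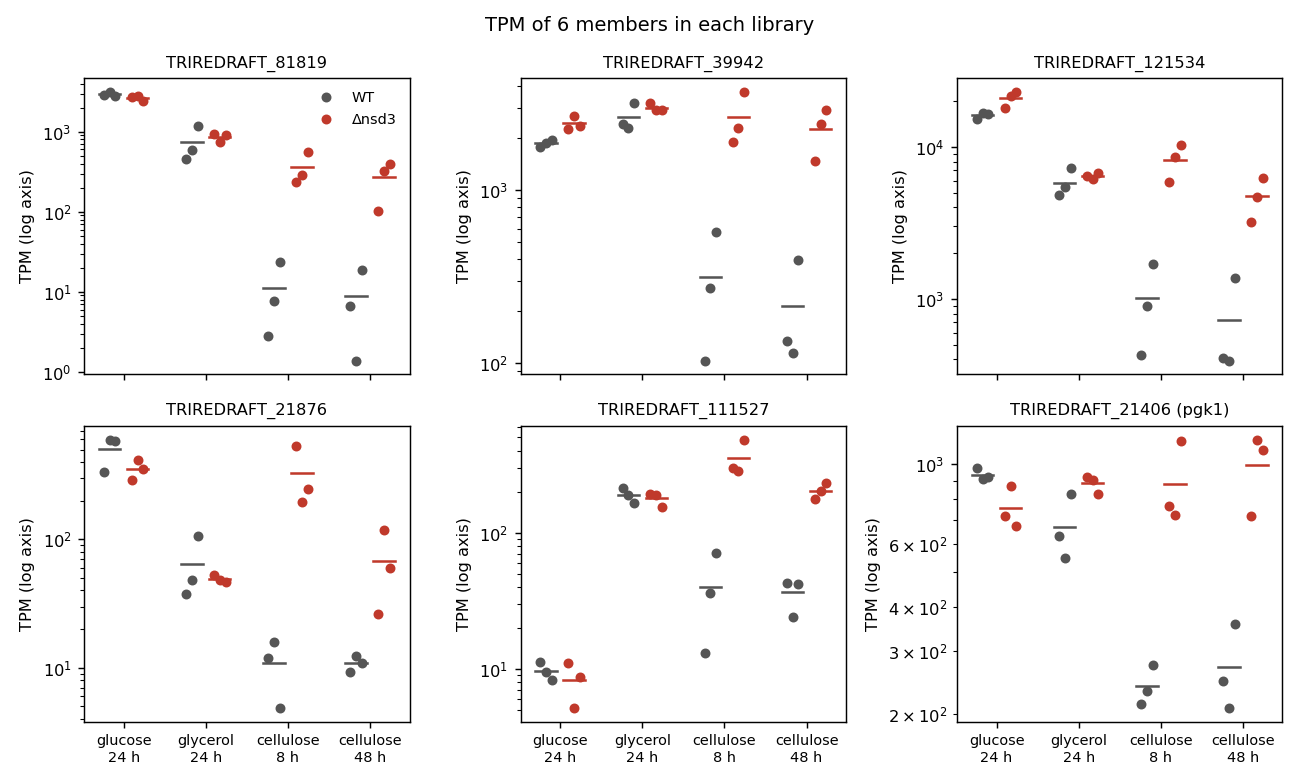
TPM (vertical, log axis) of 6 of the 85 genes in each library, by carbon source and time, grey for WT and red for Δ*nsd3*, with the mean as a line. The points of the strains lie close together on glucose and glycerol; on cellulose the Δ*nsd3* points are all above the WT points, as for TRIREDRAFT_39942, with 104 to 576 TPM in WT and 1909.7 to 3706 in Δ*nsd3* at 8 h.

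The only one of the 85 genes with a symbol in the RefSeq gene table was *pgk1* (TRIREDRAFT_21406), which encodes phosphoglycerate kinase, an enzyme of glycolysis and gluconeogenesis. In WT *pgk1* had 974, 909, and 919.8 TPM on glucose, 630.2, 548, and 829 on glycerol, 213, 232, and 275 at 8 h on cellulose, and 247, 208, and 357 at 48 h. The mutant had 719, 869.9, and 673 TPM on glucose, 924, 906, and 827 on glycerol, 764, 722, and 1166 at 8 h, and 717, 1173, and 1098 at 48 h. The group means of *pgk1* in the mutant thus lay between 754 and 996 TPM, and WT had less on cellulose than on either soluble carbon source. The difference between the strains was 1.85 at 8 h and 1.88 at 48 h, and −0.32 on glucose and 0.42 on glycerol.

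A picked list of 7 other genes of central carbon metabolism with a symbol was also read. They were looked up after the value of *pgk1* had been seen, and none of the 7 met the rule. *eno1* (TRIREDRAFT_120568), which encodes the glycolytic enzyme enolase, differed between the strains by 0.51 at 8 h and 0.27 at 48 h. *hxk1* (TRIREDRAFT_73665), for hexokinase, differed by −0.52 and 0.56. *idh2* (TRIREDRAFT_74983), for a subunit of isocitrate dehydrogenase, was higher in the mutant by 1.73 and 2.62, but it was also higher by 2.08 on glycerol. *cit1*, *pyc1*, *zwf1*, and *pgd1* differed by between −0.59 and 0.22 at the 2 times.

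What separated the strains on cellulose was, for most of the 85 genes, a lower level in WT than on glycerol. At 8 h, 63 of the 85 had a mean lower by 1 or more in WT, against 5.03% of all genes tested, and 5 had a mean higher by 1 or more, against 21%. In the mutant 3 were lower, against 2.05% of all genes tested, and 16 were higher, against 8.91%. At 48 h, 63 were lower in WT (8.82% of all genes tested) and 4 higher (21.8%), and in the mutant 15 were lower (4.27%) and 10 higher (11.5%). The rule used the cellulose and glycerol libraries of both strains, so these counts describe the genes and are not evidence for them. The median change from glycerol was −1.49 in WT and 0.18 in the mutant at 8 h, and −1.96 and −0.23 at 48 h, whereas over all genes tested it was 0.49 and 0.03 at 8 h, and 0.31 and 0.05 at 48 h. Without the 3 libraries that stood apart, 59 genes were lower by 1 or more in WT at 48 h and 18 in the mutant. The shares over all genes tested were not counted for this setting. For 21 genes at 8 h (1.49% of all genes tested) and 6 at 48 h (1.11%), all WT libraries were below and all Δ*nsd3* libraries above their own strain's glycerol libraries. Among the 293 genes left out on glucose or glycerol, 116 (39.6%) were lower by 1 or more in WT at 8 h. At 48 h in WT it was 129 (44.0%). In the mutant 13 of the 293 (4.44%) were lower and 55 (18.8%) higher at 8 h, against 3.53% and 18.8% of the 85. At 48 h in the mutant 55 (18.8%) were lower and 62 (21.2%) higher, against 17.6% and 11.8% of the 85.

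Set against glucose the picture was similar. In WT 50 genes were lower by 1 or more at 8 h (10.8% of all genes tested) and 9 higher (22.8%), and 60 lower (14.2%) and 7 higher (21.6%) at 48 h. Without *nsd3* 9 genes were lower (7.99%) and 26 higher (25.4%) at 8 h, and 24 lower (9.45%) and 20 higher (26.5%) at 48 h. The median difference from glucose was −1.48 in WT and 0.34 without *nsd3* at 8 h, and −2.04 and −0.25 at 48 h.

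In terms of TPM, the median gene of the 85 was at 35.8% of its glycerol level in WT at 8 h and at 24.8% at 48 h. In the mutant it was at 114% and 88.3%. In WT 42 genes were below 25% of their glycerol level at 48 h, and in the mutant 3 were. The lowest of the 8 group means was a WT group on cellulose for 67 genes, at 48 h for 50 and at 8 h for 17. The highest was a Δ*nsd3* group on cellulose for 36 genes, at 8 h for 24 and at 48 h for 12, and a group on glucose or glycerol for the other 49. By the rule, the lowest could not be a Δ*nsd3* group on cellulose, and the highest could not be a WT group on cellulose. The counts of this paragraph therefore describe the genes and are not evidence for them. Their shares over all genes tested were not counted.

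The 85 genes can be sorted by both strains at once. For every gene the rule makes the change from glycerol higher in the mutant than in WT. The classes below therefore describe the genes and are not evidence for them, and their shares over all genes tested were not counted. At 8 h, 56 were lower by 1 or more in WT and within 1 of their glycerol level in the mutant, and 37 had this course at both times. *pgk1*, TRIREDRAFT_39942, and TRIREDRAFT_21716 were among them. Another 4 were lower by 1 or more in WT and higher by 1 or more in the mutant at 8 h, among them TRIREDRAFT_21876 and TRIREDRAFT_80920. At 8 h, 3 were lower by 1 or more in both strains, TRIREDRAFT_81819 being the first. There were 7 genes that were higher by 1 or more only in the mutant and within 1 in WT, as TRIREDRAFT_76722 and TRIREDRAFT_105342, and 10 that were within 1 in both strains.

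**Figure D4:**
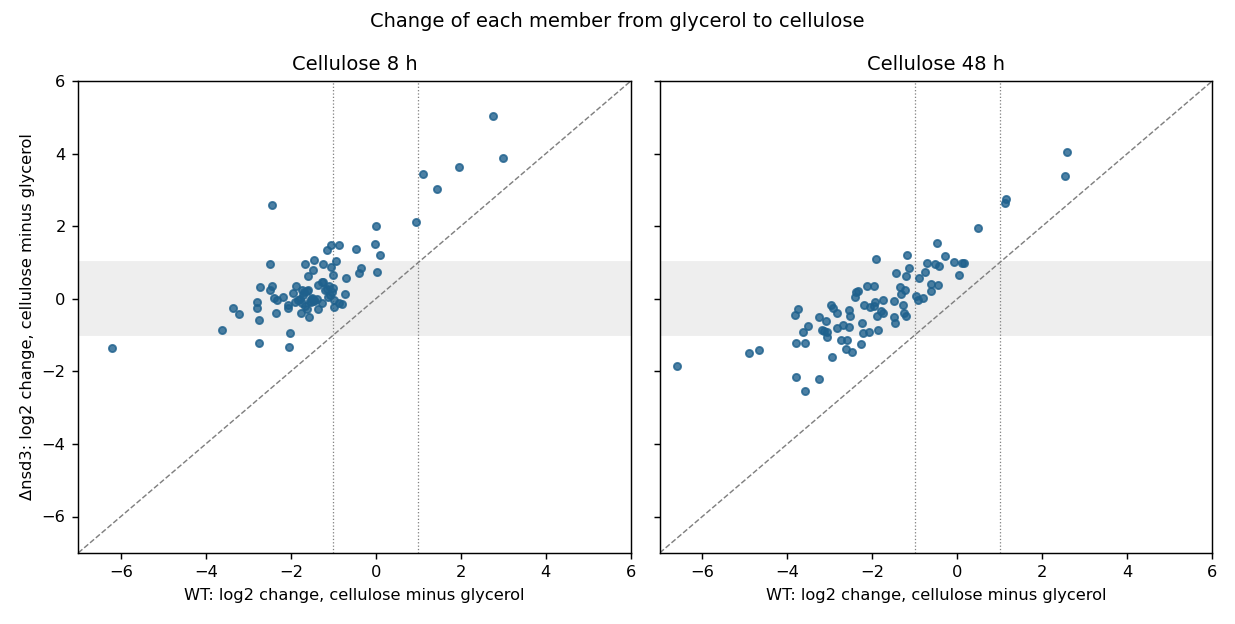
Difference in mean log2(TPM + 1) between cellulose and glycerol for each of the 85 genes, WT on the horizontal and Δ*nsd3* on the vertical axis, at 8 h (left) and 48 h (right); the grey band marks changes within 1 in Δ*nsd3*, the dotted lines the same in WT, and the dashed line equal change. Every point lies above the dashed line, as the rule makes it; at 8 h 56 of the 85 points lie in the grey band left of −1.

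The other 5 genes were higher by 1 or more on cellulose in both strains at 8 h and had low levels on glucose and glycerol. They were TRIREDRAFT_61293, TRIREDRAFT_77473, TRIREDRAFT_104277, TRIREDRAFT_55999, and TRIREDRAFT_80659, of which the last pair were named after their values had been seen. TRIREDRAFT_61293 had 0.805 to 2.34 TPM in WT on glycerol, 19.4, 15.0, and 15.8 at 8 h in WT, and 68.8, 58.7, and 56.5 in the mutant. TRIREDRAFT_77473 had 18.5, 32.1, and 34.8 TPM in WT at 8 h and 96.6, 92.5, and 94.2 in the mutant. In these genes the strains shared the direction and differed in size, by 1.81 for TRIREDRAFT_61293 and 1.74 for TRIREDRAFT_77473 at 8 h. At 48 h the difference of TRIREDRAFT_61293 was less firm, since it was under 1 in 6 of the alternatives, with 0.571 as the lowest. For TRIREDRAFT_80659 no read was estimated in any WT library on glycerol, which allows up to 3 in each by counting error alone, while at 8 h there were about 505, 96.5, and 193 reads in WT and 980.2, 354, and 562 in the mutant.

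Some of the 85 genes lay beside each other. In the gene order of the RefSeq table (assembly v2.0), 12 of them formed 6 pairs with at most 2 genes between, and 4 pairs were adjacent. TRIREDRAFT_121534 was next to TRIREDRAFT_60849, which had 31.7, 69.7, and 107 TPM in WT at 8 h and 300.1, 344, and 399 in the mutant (difference of 2.46, and 1.08 at 48 h). TRIREDRAFT_21876 was next to TRIREDRAFT_105342, which had 0.631, 0.815, and 0.454 TPM in WT at 8 h and 13.8, 5.11, and 6.43 in the mutant (2.43, and 1.54 at 48 h). Within WT, both genes of this pair were at their highest on glucose. In the mutant, TRIREDRAFT_105342 had 8.46 ± 4.70 TPM at 8 h on cellulose against 10.3 ± 2.52 on glucose. TRIREDRAFT_21876 had 327 ± 183 TPM at 8 h in the mutant against 354 ± 63.5 on glucose in that strain. In WT on glucose it had 505 ± 147 TPM (SD, n = 3). The other adjacent pairs were TRIREDRAFT_66486 with TRIREDRAFT_80310 (1.95 and 1.55 at 8 h, 2.02 and 1.03 at 48 h) and TRIREDRAFT_22774 with TRIREDRAFT_122756 (1.34 and 1.07 at 8 h, 2.12 and 2.68 at 48 h).

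The 2 remaining pairs had 1 gene between them. TRIREDRAFT_81819 and TRIREDRAFT_81822 differed between the strains by 5.18 and 1.94 at 8 h, and the gene between them, TRIREDRAFT_111600, by 2.12. At 48 h that gene differed by 1.93, but it also differed by −0.62 on glucose, which left it out. TRIREDRAFT_122590 and TRIREDRAFT_64011 differed by 1.69 and 1.55 at 8 h, and TRIREDRAFT_108852 between them by 2.13, with 0.56 on glucose. The stretch in each case therefore held 3 genes in a row that were higher in the mutant on cellulose. No gene model of the 85 overlapped another, and how many such pairs a list of this size would hold was not tested.

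The time course on cellulose was tested within each strain, with limma on log2(TPM + 1) in all 7933 genes, 2-sided p-values, and Benjamini-Hochberg adjustment over all of them. A gene was called when its log2 fold change was 1 or more in size and its adjusted p-value under 0.05. The libraries compared were also those by which the 85 genes had been chosen. Most of the 85 genes had lower means at 48 h than at 8 h in both strains. In the mutant 17 fell, against 4.26% of all genes tested, and 3 rose, against 4.6%. In WT 19 fell, against 9.35%, and 3 rose, against 6.42%. As shares of the 85, 20% fell in the mutant and 22.4% in WT, and of the 293 genes left out on glucose or glycerol 17.7% (52) fell in the mutant and 14.7% (43) in WT, a difference that was not tested. The median log2 fold change was −0.56 in the mutant (0.00 over all genes tested) and −0.44 in WT (−0.18), and 69 and 60 of the 85 were below 0. Of the genes that fell, 9 did so in both strains, 10 in WT alone, and 8 in the mutant alone, a difference that was not tested. The WT count rested on single libraries and on the fit. It was 6, against 4.93% of all genes tested, without replicate 2 at 48 h. Without replicate 3 at 48 h it was 31, against 12.9%. In a fit of the 6 libraries alone it was 5, against 5.7%, which is close to the share over all genes tested.

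TRIREDRAFT_61293 fell most in the mutant, from 68.8, 58.7, and 56.5 TPM at 8 h to 6.48, 5.44, and 7.42 at 48 h, with a log2 fold change of −3.07 ± 0.21 (SE, adjusted p = 1.6e-10, limma). It fell in WT as well, from 19.4, 15.0, and 15.8 TPM to 1.90, 3.90, and 2.38 (−2.28 ± 0.21, adjusted p = 1.7e-08, limma). The libraries of the times did not overlap in either strain, so this gene peaked at the early time with and without *nsd3*. TRIREDRAFT_104277 fell in the mutant from 26.1, 13.3, and 19.8 TPM to 2.29, 1.85, and 3.91 (−2.49 ± 0.24, adjusted p = 5.3e-08, limma). TRIREDRAFT_21876 fell in the mutant by 2.35 on the log2 scale (adjusted p = 0.00044, limma), while WT stayed between 4.84 and 15.8 TPM at the 2 times, with a log2 fold change of 0.12 ± 0.45.

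In WT the largest falls beside TRIREDRAFT_61293 were those of TRIREDRAFT_122756 and TRIREDRAFT_122511. TRIREDRAFT_122756 had 81.4, 107, and 129.9 TPM at 8 h and 44.5, 3.16, and 44.7 at 48 h (−2.36 ± 0.51, adjusted p = 0.00079, limma). The 3.16 TPM belongs to replicate 2, and in a fit of the 6 libraries alone this call was lost (adjusted p = 0.097, limma). TRIREDRAFT_122511 had 35.9, 34.7, and 22.6 TPM at 8 h and 7.21, 3.67, and 8.47 at 48 h (−2.14 ± 0.30, adjusted p = 6.6e-06, limma). All its 48 h libraries were below all its 8 h libraries.

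TRIREDRAFT_77473 and TRIREDRAFT_56771 were called higher at 48 h than at 8 h in both strains, but several of these calls rested on single libraries or on the fit. TRIREDRAFT_77473 went from 96.6, 92.5, and 94.2 TPM to 157, 194, and 241 in the mutant (1.03 ± 0.26, adjusted p = 0.00425, limma) and from 18.5, 32.1, and 34.8 to 40.6, 71.4, and 81.4 in WT (1.14 ± 0.26, adjusted p = 0.0011, limma). Its call was lost in WT in a fit of the 6 libraries alone (adjusted p = 0.051, limma), without replicate 1 at 8 h (log2 fold change of 0.87), and without replicate 3 at 48 h (0.95), and in the mutant without replicate 3 at 48 h (0.88). TRIREDRAFT_56771 went from 23.7, 23.8, and 21.8 TPM to 46.6, 62.5, and 57.6 in the mutant (1.22 ± 0.24, adjusted p = 0.00058, limma). In WT it had 11.8, 11.1, and 8.17 TPM at 8 h and 14.2, 37.5, and 22.5 at 48 h (1.09 ± 0.24, adjusted p = 0.00096, limma), but the call was lost without replicate 2 at 48 h (log2 fold change of 0.75), without replicate 3 at 8 h (0.95), with limma array weights (0.87), with a pseudocount of 5 (0.89), and in a fit of the 6 libraries alone (adjusted p = 0.066, limma). TRIREDRAFT_39587 rose in the mutant, from 34.7, 16.7, and 22.6 TPM to 63.6, 70.5, and 68.0 (1.47 ± 0.33, adjusted p = 0.0017, limma).

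The glycerol and glucose cultures show which soluble carbon source each gene followed. Here the rule fixed that the 2 strains had nearly the same levels, so the likeness of the strains below is no finding, and only the direction of each gene is. In WT 15 of the 85 genes rose from glucose to glycerol, against 8.72% of all genes tested, and 16 fell, against 13.4%. In the mutant 16 rose, against 17.7%, and 14 fell, against 7.19%. The split depended on the scaling of the libraries, and so did that of all genes tested. The median of ratios moved the median of all genes tested by 0.16 in WT and by −0.29 in the mutant. With it 21 rose (11.2% of all genes tested) and 13 fell (10.5%) in WT. In the mutant 12 rose (10.9%) and 19 fell (12.1%). With quantile normalization 18 rose (10.2%) and 13 fell (10.3%) in WT, and 14 rose (9.59%) and 14 fell (10.4%) in the mutant.

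The largest rise from glucose to glycerol was that of TRIREDRAFT_111527, described above, which rose by a log2 fold change of 4.15 ± 0.37 in WT (adjusted p = 2.9e-09, limma) and 4.31 ± 0.37 in the mutant (adjusted p = 1.7e-09, limma). On cellulose at 8 h its levels lay between those on glucose and on glycerol in WT, and above those on glycerol without *nsd3*. TRIREDRAFT_119616 had 64.3, 62.8, and 42.6 TPM on glucose and 342, 375, and 417 on glycerol in WT (2.74 ± 0.21, adjusted p = 2.7e-10, limma), and it rose by 2.84 ± 0.21 in the mutant (adjusted p = 1.6e-10, limma). TRIREDRAFT_61292 had 2.96, 4.36, and 2.60 TPM on glucose and 25.7, 23.4, and 18.5 on glycerol in WT (2.46 ± 0.26, adjusted p = 3.3e-08, limma). At 8 h on cellulose it had 10.6, 11.2, and 9.64 TPM in WT and 29.4, 33.7, and 25.8 in the mutant.

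In the other direction, TRIREDRAFT_39587 and TRIREDRAFT_21876 fell most in both strains. TRIREDRAFT_39587 had 286, 427, and 505 TPM on glucose and 25.3, 30.6, and 62.1 on glycerol in WT (−3.40 ± 0.33, adjusted p = 9.7e-09, limma). TRIREDRAFT_21876 had 336, 599, and 581 TPM on glucose and 37.5, 48.3, and 107 on glycerol in WT (−3.06 ± 0.45, adjusted p = 5.7e-06, limma). Without *nsd3*, TRIREDRAFT_39587 fell by 3.34 on the log2 scale and TRIREDRAFT_21876 fell by 2.81. TRIREDRAFT_105342, beside TRIREDRAFT_21876, fell in WT from 6.42, 9.86, and 12.7 TPM to 0.409, 0.537, and 0.975 (−2.67 ± 0.29, adjusted p = 5.8e-08, limma). TRIREDRAFT_70090 fell in the mutant from a mean of 8.91 ± 0.350 TPM (SD, n = 3) to 0.838, 0.789, and 0.651 (−2.49 ± 0.27, adjusted p = 5.7e-08, limma). The 85 genes therefore included some higher on glycerol and some higher on glucose, and *pgk1* was called in neither strain.

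**Figure D5:**
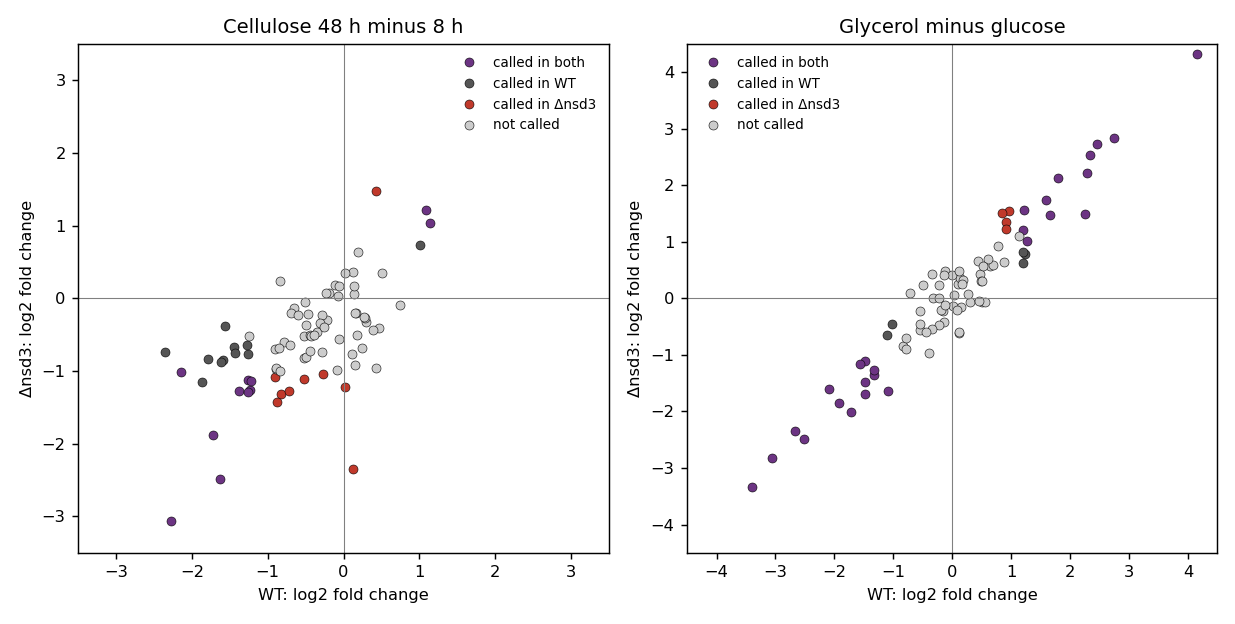
Log2 fold changes of the 85 genes in WT (horizontal) and Δ*nsd3* (vertical), for 48 h against 8 h on cellulose (left) and glycerol against glucose (right), coloured by the limma call (log2 fold change of 1 or more in size and adjusted p under 0.05). On the left, 19 genes fell in WT and 17 in Δ*nsd3*, 9 of them in both; on the right the points lie near the diagonal, as the rule makes them.

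Genes were also chosen anew by the rule on each pair of replicate numbers and read in the remaining number. Chosen without replicate 1, 2, or 3 there were 96, 77, and 78 genes, which shared 71, 65, and 56 with the 85. In the libraries held out, the median strain difference of the chosen genes was 1.86, 1.75, and 1.68 at 8 h and 1.18, 2.32, and 1.35 at 48 h. It was 0.03, 0.01, and 0.14 on glucose, and 0.22, 0.15, and −0.22 on glycerol. The difference was 1 or more at both cellulose times for 50 of 96, 59 of 77, and 48 of 78 genes, against 4.46%, 5.47%, and 4.37% of all genes tested. The whole rule held again for 31, 35, and 26 of them, against 0.882%, 1.05%, and 0.945%. These lists are not the 85 genes, and the rule was chosen with earlier results of these data known. What the replicate numbers share was not given either. The values therefore describe how the choice varied and are not a test of the 85 genes.

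Several genes sat close to a limit. Just inside the cellulose limit of 1 were TRIREDRAFT_68204, with a smaller difference of 1.0014, and TRIREDRAFT_39587, with 1.0040. Just outside were TRIREDRAFT_119981 (0.993) and TRIREDRAFT_21749 (0.992). Inside the limit of 0.5 on glucose and glycerol were TRIREDRAFT_78130 (0.489) and TRIREDRAFT_75854 (0.487), and outside it TRIREDRAFT_103162 (0.503) and TRIREDRAFT_4933 (0.512). In all, 7 of the 85 lay within 0.05 of the first limit and 8 within 0.05 of the second. The list depended on the scaling in the same way: 81 genes met the rule with the median of ratios, of which 50 were among the 85, and 89 with quantile normalization, of which 66 were. On cellulose all 85 genes were higher in the mutant under both scalings, with medians of 1.89 and 1.80 at 8 h and 1.60 and 1.59 at 48 h, but their median difference on glycerol turned from 0.06 to −0.27 and −0.10.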

How the data were processed

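RNA was polyA-selected, made into stranded libraries, and sequenced by the authors, who trimmed the reads with Trim Galore 0.6.7, mapped them with HISAT2 2.2.1, counted them per gene with featureCounts, and compared strains with DESeq2. The deposited table gives, as the authors computed it, the TPM of 8755 genes in each of the 24 libraries. Since it holds no counts, a count model was not used. The value of 1 read in each library was derived from its low TPM values and the gene lengths of the RefSeq table. By this measure 66.1% to 81.8% of low values were whole reads to within 0.1, where chance gives 20%, and all reads given are estimates. On 4 simulated libraries of 8750 genes the estimate was off by at most 0.218%.

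Values were set to log2(TPM + 1). In limma (lmFit, eBayes with trend) 1 model with 8 group means was fitted to all 24 libraries for the 7933 genes that reached 1 TPM in 3 or more of them. A gene then has 1 SE for all its groups. On simulated data for 48 h against 8 h in WT, with 7933 genes, 199 of 200 genes changed by 2 on the log2 scale were called, and 8 unchanged genes. The changed genes were drawn from those with higher levels, and each gene had the same normal spread in all groups. Genes with low levels and groups with an outlying library were thus not covered. Whether replicates came from separate cultures is given only as triplicate experiments, so p-values measure the spread between these libraries. The genes, the comparisons, and the alternatives were chosen with earlier results of these data known. Genes were named by rule: the 12 with the largest smaller cellulose difference, those with a symbol, those at the limits, those beside another of the 85, and in each test the 3 called genes with the largest fold change in each direction whose libraries did not overlap. Groups by gene product could not be formed, because the tables used here pair the 85 identifiers with 1 symbol and no product, and no sequences were read. The RefSeq gene table held 8750 of the 8755 identifiers. The level of *pyr4* was not analysed here. Fits were run in R 4.3.3 with limma 3.58.1, and other steps in Python 3.11.15 with matplotlib 3.10.9, pandas 2.3.3, and numpy 2.4.6. Alternatives changed the pseudocount, the filter, the scaling, the limits of the rule, the fit, and the libraries used.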

Additional observations from a re-analysis of the deposited data

Results flagged for a closer look

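The libraries of the strains moved in opposite directions from glycerol to cellulose for 21 of the 85 genes at 8 h, with all WT libraries lower and all Δ*nsd3* libraries higher than on glycerol, and for 6 at 48 h. Over all genes tested the numbers were 118 (1.49%) and 88 (1.11%). The difference between the strains in this change was not tested, because the rule used the same libraries. The reverse, all WT libraries higher and all Δ*nsd3* libraries lower, was seen for 0 of the 85 at either time. TRIREDRAFT_80920, TRIREDRAFT_21876, TRIREDRAFT_76722, and TRIREDRAFT_111527 were among the 21, and TRIREDRAFT_122590, which was among both, had 639, 663, and 688 TPM in WT on glycerol, 257, 317, and 391 at 8 h, and 307, 43.6, and 403 at 48 h. The mutant had 609, 564, and 524 TPM on glycerol, 847, 942, and 1361 at 8 h, and 1027, 1223, and 1409 at 48 h. The counts among the 85 were 20 and 7 with the median of ratios and 24 and 8 with quantile normalization. They were 22 and 8 without the 3 libraries that stood apart, an alternative chosen after the data had been seen. The numbers over all genes tested moved more, to 220 (2.77%) and 181 (2.28%) with the median of ratios. They were 201 and 159 with quantile normalization, and 135 and 114 without the 3 libraries. The share of all genes tested with such moves thus depended on the scaling.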

How the results depend on the processing

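The number of genes meeting the rule was 27 with a limit of 0.25 in place of 0.5 on glucose and glycerol, 211 with a limit of 1, and 38 with a limit of 1.5 in place of 1 on cellulose. With 1 library or 1 replicate number left out it was between 74 and 96, and without the 3 libraries that stood apart it was 71. The median change from glycerol to 8 h in WT was −2.03 with the median of ratios, which moved the median of all genes tested by −0.47. With libraries left out it was between −1.61 and −1.27 at 8 h in WT and between −2.22 and −1.70 at 48 h, and in the mutant between 0.10 and 0.21 and between −0.40 and 0.01.

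Genes that rose in WT between 8 h and 48 h numbered 1 with a pseudocount of 5 and 0 in a fit of the 6 libraries compared, and 1 to 3 with libraries left out. Those that fell numbered 5 in that fit (5.7% of all genes tested), 7 with limma array weights (5.5%), and 6 without the 3 libraries that stood apart (4.89%). With libraries left out they numbered 6 (4.93%) to 31 (12.9%). In the mutant 2 to 3 rose and 12 to 22 fell with libraries left out. From glucose to glycerol, 14 to 16 rose and 13 to 16 fell in WT, and 15 to 17 and 13 to 14 in the mutant. The cause of these shifts was not tested. Of the 385 values of named genes in tests, 13 lost their call and 0 changed sign, and of 680 strain differences of named genes on cellulose, 0 changed sign and 39 were under 1.

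Replicate numbers were not taken as pairs, since deviations of same-numbered libraries in the groups compared, which are of 1 strain, did not correlate by over 0.1 in every pair (−0.25 to 0.37). On cellulose, replicates 1 and 3 correlated in WT (0.14 and 0.37) and in the mutant (0.34 and 0.27), and replicate 2 did not (−0.25 and −0.12). Pairing across strains was not checked. With the replicate number as a block, 6 genes fell in WT between 8 h and 48 h, against 4.47% of all genes tested. Of these 5 were among the 19, and every other count of calls moved by 1 or less.

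Depth limits the genes with few reads, and TPM cannot show a change in total RNA.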

Other observations

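In WT on cellulose and on glucose, the libraries with more *nsd3* also held more of the 85 genes. At 8 h on cellulose, replicates 1, 2, and 3 had 51.2, 91.2, and 163 TPM of *nsd3*, and the 85 genes held 1.04%, 1.66%, and 2.45% of listed TPM. At 48 h they had 59.9, 32.2, and 126 TPM of *nsd3*, and 0.818%, 0.684%, and 1.78%. The order was the same on glucose, with 222, 226, and 171 TPM of *nsd3* and shares of 8.01%, 8.69%, and 7.91%, but not on glycerol, with 278, 238, and 249 TPM and 6.09%, 6.68%, and 8.31%. In the mutant, where *nsd3* was deleted, the share also rose from replicate 1 to replicate 3 on cellulose. It was 6.34%, 7.30%, and 9.02% at 8 h and 3.46%, 4.85%, and 5.65% at 48 h. The order of replicates in the mutant was that of WT at 8 h, but not at 48 h or on glucose. These are values of few libraries, and the relation of the share to *nsd3* was not tested.

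Replicate 3 was the highest library of its group on cellulose for 61 of the 85 genes in WT at 8 h, 69 at 48 h, and in the mutant 59 and 66. Replicate 3 was also the highest for 65 genes in WT on glycerol, but for 24 in the mutant there, and on glucose for 20 in WT and 31 in the mutant. The shares of all genes tested that were highest in replicate 3 were not counted. The median log2(TPM + 1) of all genes tested was lowest in replicate 3 in every group except WT on glucose and WT at 48 h. In WT at 8 h it was 4.75, 4.63, and 4.49 in replicates 1, 2, and 3. Whether the scaling of the libraries bears on these counts was not tested. What the replicate numbers share was not given in the sources used here.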
